A study of Mus musculus with 30 samples.

Results

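The comparison set 3 RAFi/MEKi-treated tumours of clone 2646R against 3 RAFi/MEKi-treated tumours of clone 14559R, which are 6 of the 30 libraries of the series. The members were taken from the clone name and the treatment in the sample labels, not from any measured value. All 6 tumours grew under the skin from YUMM1.7 cells, of the C57BL/6 background, that had been injected after isolation of single barcoded clones with CaTCH, and live cells with strong GFP signal were sorted after staining for CD45. The series also holds untreated tumours of these clones (3 each), treated and untreated tumours of the clones 2646TN and 14559TN, and tumours of the clone 13TN, which enter only the estimate of spread. The labels do not spell out R and TN, the drugs behind RAFi/MEKi or their doses, so R and TN are used here as names. Each line is 1 clone and each tumour carries its own code, so the p-values measure the spread between tumours of a clone and not the spread between clones.

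YUMM1.7 is a mouse melanoma line with mutant Braf and loss of Cdkn2a. In such cells mutant BRAF keeps the kinases MEK and ERK active, and RAF and MEK inhibitors block that signal, which lowers the transcription of ERK feedback genes such as the Dusp and Spry families and slows entry into the cell cycle. Tumours that grow out under these drugs can restore ERK signalling, use other receptors, or change cell state, and the genes below are ordered along those lines.

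The 6 libraries held 3994624 to 4612122 counts each, with 15950 to 16680 genes detected. Spearman correlations of gene levels were 0.982 to 0.983 among the treated 2646R tumours, 0.969 to 0.978 among the treated 14559R tumours and 0.929 to 0.935 between the groups. Over the 12 libraries of both clones, the first principal component (57.1% of the variance) separated the clones. On the second component (17.2%) the treated 2646R tumours lay at 21.6 to 24.3, apart from the untreated 2646R tumours at -34.6 to -18.2. The treated 14559R tumours lay at 16.8, 4.09 and -5.60, and the last of these, replicate 3, fell among the untreated 14559R tumours (-9.66 to 1.87). Treated calls of genes named below that were lost without that library are given with their adjusted p without it, alone or within a range. Without it, called log2 fold changes moved by over 1.5 times in fold for Areg (to -2.42), Trib3 (to -1.89), Gfra1 (to -2.31), Cdh5 (to -3.53) and Col23a1 (to -3.23), which came nearer to 0, and for Itga3 (to 2.90), Ephb2 (to 6.53), Nrg1 (to 3.54), Ltbp2 (to 4.16), Myl9 (to 6.40), Col14a1 (to 4.19), Ddx3y (to 9.70) and Ankrd1 (to 8.54), which went farther from it. Levels below are CPM, gene counts scaled to the size of each library with TMM factors. Where 3 values follow each other, they are the tumours in the order of replicates 1 to 3, a mean ± SD covers n = 3 tumours, and a value ± SE after a gene is its log2 fold change of 2646R over 14559R, in treated tumours unless stated.

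Treated 2646R tumours had higher levels of cell-cycle genes and lower levels of hypoxia, glycolysis and lysosome genes than treated 14559R tumours. Of 13286 genes tested, 1735 (13.1%) were higher and 1864 (14.0%) lower in treated 2646R at an edgeR adjusted p under 0.05, which is 27.1% of genes in either direction. The counts of called list members below are to be read beside these shares. The levels of the 2 groups did not overlap for 5507 genes, or 41.4%. A difference of over 4-fold was called for 286 genes in the upward and 391 in the downward direction.

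In untreated tumours of the same clones, which share no library with the treated ones, 2730 genes (20.5%) were called, 10.2% of the tested genes higher and 10.3% lower in 2646R, and 1641 without untreated 2646R replicate 1. Of the treated calls, 1234 were also called in the same direction untreated, which is 34.3% of the treated and 45.2% of the untreated calls. Across the tested genes the log2 fold changes in treated and untreated tumours had a Pearson correlation of 0.573 and a Spearman correlation of 0.387, as a description, since genes are not independent replicates. The difference between the clones depended on treatment for 1114 genes (8.38%), of which 479 (3.61%) lay above 0 and 635 (4.78%) below 0. The count above 0 was 726 with DESeq2, and that below 0 was 399 without untreated 14559R replicate 3 and 400 without untreated 2646R replicate 1. These tests compare the treated difference with the untreated one in the same fit.

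**Figure D1:**
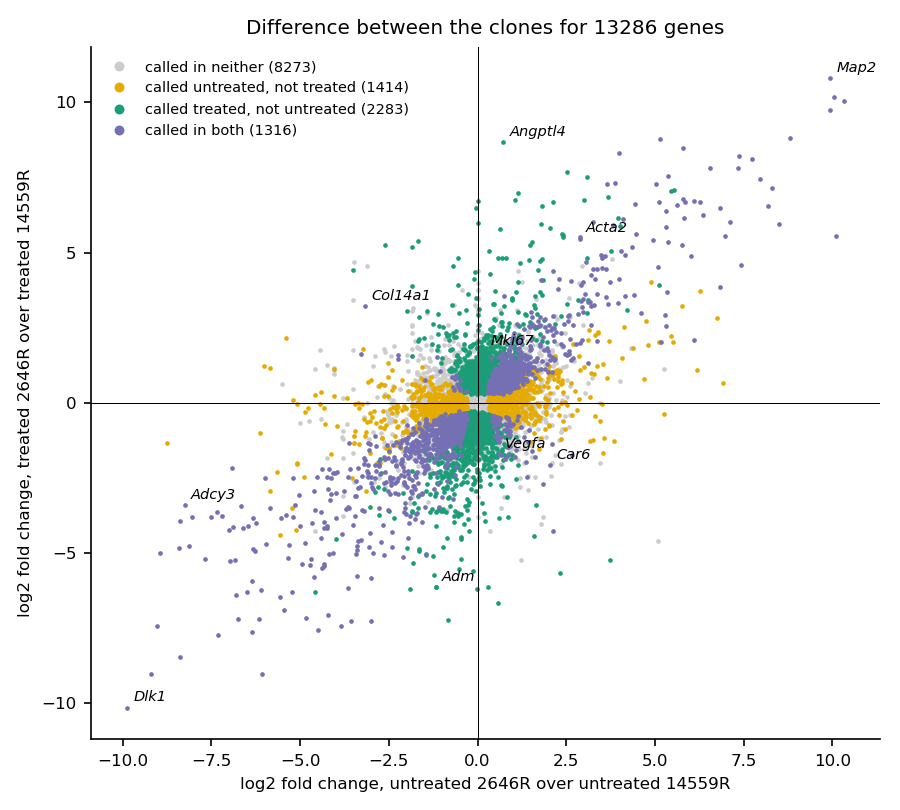
Log2 fold change of 2646R over 14559R in treated tumours (vertical axis) against that in untreated tumours (horizontal axis), 1 point per tested gene (13286). Colours mark 1316 genes called in both comparisons, 2283 called in treated tumours and not in untreated ones, 1414 called in untreated tumours and not in treated ones, and 8273 called in neither.

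The widest gaps lay in genes with no or almost no counts in 1 clone. Map2, a microtubule-associated protein of neurons, was at 59.0, 49.7 and 57.9 CPM in treated 2646R and at 0 in each tumour in treated 14559R, which is at least 231-fold higher when 3 counts over the group stand for the 0. Eya1, a transcriptional co-activator of embryonic development, was at 43.8, 33.5 and 30.1 CPM against 0 in each tumour, or at least 150.3-fold higher. The naming rule took genes whose tumours did not overlap between the groups, so that separation was set by the choice.

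The Y-linked genes Uty and Kdm5d, a pair of histone demethylase family genes, had no count in any treated 14559R tumour and were at least 137-fold and 112-fold higher in treated 2646R (32.7 ± 4.88 and 26.8 ± 2.598 CPM). The RNA helicase gene Ddx3y was at 135, 137 and 97.9 CPM in treated 2646R and had 3 counts over the treated 14559R tumours, a ratio of 517 (95% interval 177 to 2506), where the interval covers counting error only. All 3 tested Y-linked genes were thus high in 1 clone and at or near 0 in the other, and the same 3 were called higher in untreated 2646R.

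Further genes with no count in treated 14559R were Robo1, an axon guidance receptor (at least 57.6-fold higher), Zdhhc2, a palmitoyltransferase (at least 46.6-fold), Msx1, a homeobox factor (at least 41.5-fold), and Angptl4, a secreted inhibitor of lipoprotein lipase (at least 52.5-fold). Echdc2, Miga1 and Zfp422 were at least 38.2-fold, 36.3-fold and 28.8-fold higher. Angptl4 differed from the others in its untreated levels, where the clones stood at 6.23 ± 4.50 and 3.74 ± 2.01 CPM. Its treated difference exceeded the untreated one by 7.95 on the fitted log2 scale (edgeR adjusted p = 0.000615), a size that depends on the prior count because 1 group has no counts.

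In the other direction, Dlk1, a membrane protein related to Notch ligands and imprinted in mice, had no count in treated 2646R and was at 29.7, 36.4 and 39.7 CPM in treated 14559R, at least 149.9-fold lower in 2646R. Hgf, the ligand of the receptor Met, had 1 count over the treated 2646R tumours against 17.0, 26.1 and 18.2 CPM, a ratio of 261 (95% interval 46.9 to 10326). Hapln1, which links hyaluronan to proteoglycans, was at 28.3, 7.81 and 12.4 CPM in treated 14559R and at least 70.7-fold lower in 2646R. Both Dlk1 and Hgf stood apart between the clones without treatment as well, and Dlk1 again had no count in untreated 2646R.

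The imprinted adaptor gene Grb10 had no count in treated 2646R but ranged widely in treated 14559R (35.1, 1.22 and 11.6 CPM). Tubg2, a gamma tubulin, was at 10.8 ± 0.914 CPM in treated 14559R and at least 46.3-fold lower in 2646R. Nppc, which encodes a natriuretic peptide, Slc43a3 and Krt20 were at least 27.8-fold, 26.4-fold and 22.6-fold lower, the first of these not called by DESeq2 (adjusted p = 0.45). Gpx7, Hsd11b1 and Il10, an anti-inflammatory cytokine, had 2 counts each over the treated 2646R tumours, and their ratios were 173 (95% interval 47.9 to 1428), 179 (95% interval 49.6 to 1479) and 173 (95% interval 47.9 to 1428). Serping1, the inhibitor of complement C1, was at 0.409 ± 0.383 CPM against 64.5 ± 34.8 (log2 fold change -7.26 ± 0.63, edgeR adjusted p = 2.38e-09).

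Genes of mitosis and of DNA replication were higher in treated 2646R nearly across both lists. Of 24 mitosis genes tested, 20 were higher and 0 lower, with a median log2 fold change of 1.02, beside -0.01 over all tested genes. Of 24 DNA replication genes, 22 were higher and 0 lower, with a median of 1.13. The summed level of the mitosis list was 2613 to 2993 CPM in treated 2646R and 1295 to 1625 in treated 14559R. In untreated tumours the mitosis list had 0 higher and 1 lower (median -0.15), and 5 higher and 1 lower replication genes (median 0.21). The treated difference exceeded the untreated one for 14 mitosis and 10 replication genes.

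Mki67, the nuclear protein Ki-67 that marks cycling cells, was at 152, 167 and 165 CPM in treated 2646R and 41.0, 46.9 and 59.9 in treated 14559R (log2 fold change 1.72 ± 0.24, edgeR adjusted p = 5.07e-06). Every treated 2646R tumour lay above every treated 14559R tumour. In untreated tumours the levels were 71.6 ± 31.1 and 62.7 ± 11.1 CPM and not called apart (edgeR adjusted p = 0.623), and the difference between the differences was 1.52 ± 0.34 (edgeR adjusted p = 0.0054).

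Kif23, a kinesin of the central spindle, was at 118, 130.2 and 119.7 CPM against 43.8, 37.6 and 56.3 (log2 fold change 1.42 ± 0.18, edgeR adjusted p = 2.69e-07). Birc5, or survivin, a member of the chromosomal passenger complex, was at 216, 252 and 269.7 CPM against 83.7, 93.3 and 117 (log2 fold change 1.33 ± 0.17, edgeR adjusted p = 4e-07). The groups did not overlap for either gene. Kif11, the bipolar spindle motor, was higher by a log2 fold change of 1.93 ± 0.34, Top2a, the topoisomerase that untangles chromosomes, by 1.00 ± 0.24, Cenpf, a kinetochore protein, by 1.14 ± 0.18, and the mitotic kinase Plk1 by 0.94 ± 0.22. Cyclin B1 (Ccnb1) was higher by a log2 fold change of 0.73 ± 0.22 (edgeR adjusted p = 0.0129, and adjusted p 0.0513 to 0.0594 without treated 14559R replicate 1 or 2 or treated 2646R replicate 3). Cdk1 and Aurkb were not called, at 0.45 ± 0.22 and 0.71 ± 0.39.

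Among replication genes, Mcm2, a subunit of the replicative helicase, was at 178, 233 and 184 CPM against 48.1, 60.1 and 94.0 (log2 fold change 1.56 ± 0.20, edgeR adjusted p = 3.87e-07). Mcm7, of the same helicase, was at 342, 425 and 336 CPM against 109, 114 and 161 (log2 fold change 1.52 ± 0.20, edgeR adjusted p = 1.61e-06). Pola1, the catalytic subunit of the polymerase that primes DNA synthesis, was at 137, 178 and 147 CPM against 54.6, 44.7 and 53.3 (log2 fold change 1.595 ± 0.25, edgeR adjusted p = 2.02e-05). All 3 genes were separated between the groups. Fen1, a flap nuclease of lagging strand synthesis, was higher by a log2 fold change of 2.01 ± 0.26, Mcm5 by 1.83 ± 0.29 and the loading factor Mcm10 by 1.86 ± 0.25. Pcna, the sliding clamp, was higher by a log2 fold change of 0.61 ± 0.20 (edgeR adjusted p = 0.0193, and adjusted p 0.0859 to 0.112 without treated 14559R replicate 2 or treated 2646R replicate 2), and Gins1 was not called (0.72 ± 0.37).

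Mcm2, Fen1 and Mcm7 were also called higher in untreated 2646R, by 0.75 ± 0.20, 1.22 ± 0.25 and 0.57 ± 0.20. Of the cyclins, their kinases and inhibitors, 5 of 16 tested were higher (3 without treated 14559R replicate 1) and 2 lower. Ccne2, a cyclin of S-phase entry, was at 48.0, 66.5 and 63.0 CPM against 12.7, 18.6 and 18.4 (log2 fold change 1.84 ± 0.31, edgeR adjusted p = 2.95e-05), and its treated difference exceeded the untreated one by 1.59 ± 0.43. Cyclin D2 (Ccnd2) was higher by a log2 fold change of 1.17 ± 0.29 and cyclin D1 (Ccnd1) by 0.58 ± 0.18 (edgeR adjusted p = 0.0167, and adjusted p = 0.0823 without treated 14559R replicate 1). Cdkn1a, the p21 inhibitor of cyclin-dependent kinases and a p53 target, was at 136, 114 and 90.8 CPM against 182, 503 and 531 (log2 fold change -1.84 ± 0.32, edgeR adjusted p = 0.000146). The pocket protein gene Rbl2 was lower (log2 fold change -0.93 ± 0.20).

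**Figure D2:**
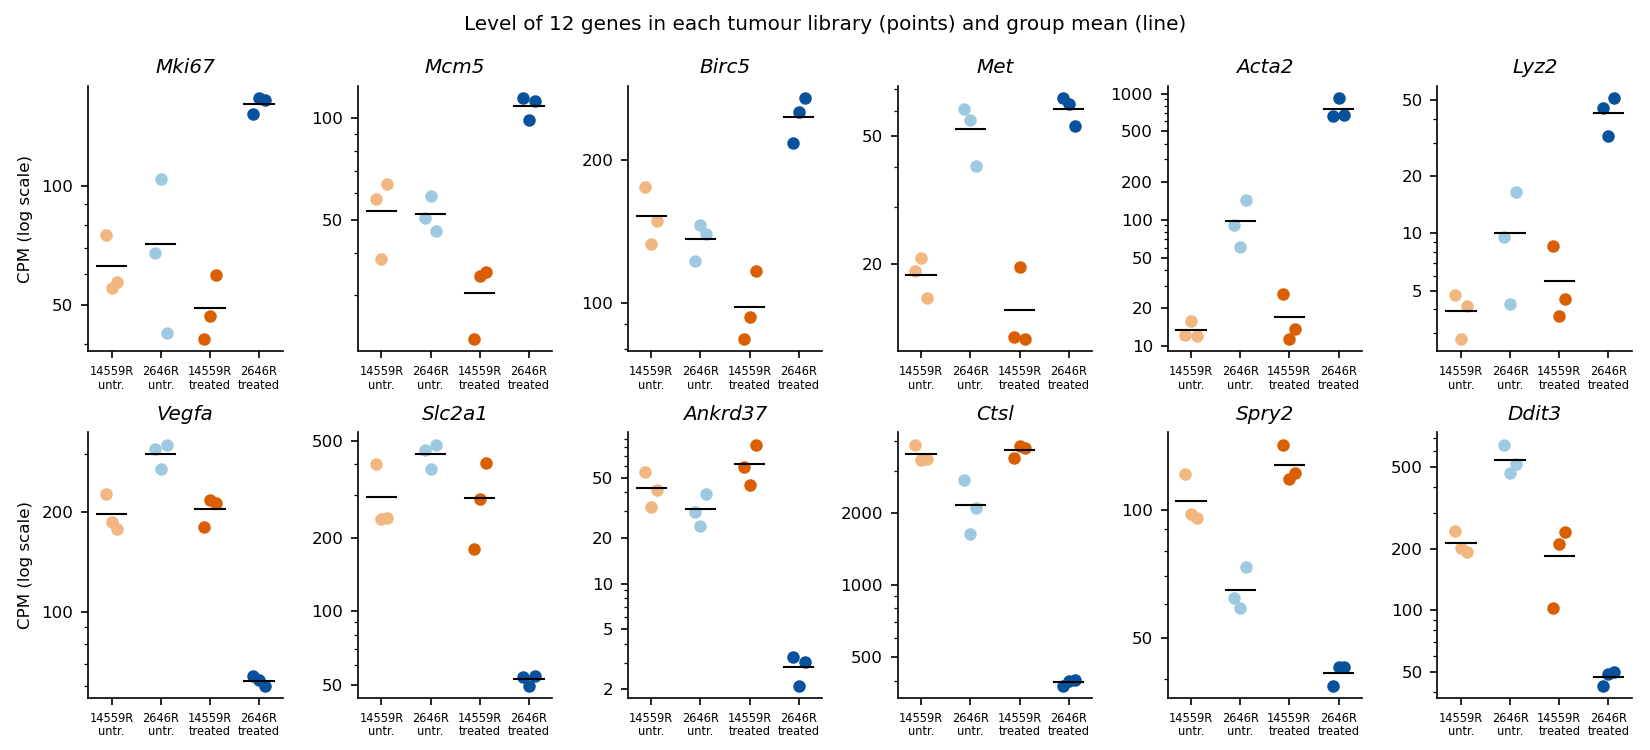
Level in CPM (logarithmic vertical axis) of 12 genes in each of the 3 tumours of treated and untreated 2646R and 14559R, 1 point per tumour and a line at the group mean. The treated 2646R tumours lie below the treated 14559R tumours for Vegfa (64.0, 62.5 and 60.0 against 180.0, 218 and 214 CPM) and above them for Mki67 (152, 167 and 165 against 41.0, 46.9 and 59.9 CPM).

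The promoters of called members are shown because many of them hold short sequences known for these programmes, in windows of 250 bases before to 50 after the start from RefSeq (GRCm38.p6), written 5′ to 3′ on the gene's strand. Members of the mitosis list commonly carry a cell cycle homology region, searched as TTTGAA, and a CCAAT box, searched as CCAAT, both on either strand. Both motifs stood in 13 of 20 windows of the mitosis list (65.0%), in 7.12% of 27025 RefSeq windows and in 4.77% of those of tested genes. The 3 windows below are those of the called mitosis genes with the smallest p that hold both, with the matches in capitals.
Kif23 (chr9:61946750-61947049, minus strand): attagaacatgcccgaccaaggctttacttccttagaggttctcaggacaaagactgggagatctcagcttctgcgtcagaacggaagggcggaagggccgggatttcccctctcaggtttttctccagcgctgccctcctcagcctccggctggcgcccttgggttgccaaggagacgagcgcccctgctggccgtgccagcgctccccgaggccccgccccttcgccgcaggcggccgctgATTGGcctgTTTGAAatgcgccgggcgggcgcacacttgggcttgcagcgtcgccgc
Mki67 (chr7:135716330-135716629, minus strand): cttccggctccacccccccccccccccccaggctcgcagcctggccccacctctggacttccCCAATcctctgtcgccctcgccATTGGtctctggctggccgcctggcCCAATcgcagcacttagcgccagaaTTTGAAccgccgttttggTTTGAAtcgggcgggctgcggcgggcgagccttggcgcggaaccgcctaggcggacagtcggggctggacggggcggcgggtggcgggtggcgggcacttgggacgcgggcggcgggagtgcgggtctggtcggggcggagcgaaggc
Cenpf (chr1:189688037-189688336, minus strand): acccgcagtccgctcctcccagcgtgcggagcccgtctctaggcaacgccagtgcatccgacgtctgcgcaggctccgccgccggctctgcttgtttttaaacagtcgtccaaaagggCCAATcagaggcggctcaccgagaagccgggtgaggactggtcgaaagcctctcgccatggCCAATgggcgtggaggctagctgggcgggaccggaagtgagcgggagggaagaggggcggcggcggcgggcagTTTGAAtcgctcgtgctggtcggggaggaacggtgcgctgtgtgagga
For DNA replication genes the E2F sequences TTTCCCGC, TTTGGCGC, TTTCGCGC and TTTGCCGC were searched on both strands, and 9 of 19 windows (47.4%) held at least 1 of them, against 2.32% of all RefSeq windows and 4.31% of those of tested genes. The windows of the 2 called members with the smallest p that hold one follow.
Mcm7 (chr5:138171834-138172133, minus strand): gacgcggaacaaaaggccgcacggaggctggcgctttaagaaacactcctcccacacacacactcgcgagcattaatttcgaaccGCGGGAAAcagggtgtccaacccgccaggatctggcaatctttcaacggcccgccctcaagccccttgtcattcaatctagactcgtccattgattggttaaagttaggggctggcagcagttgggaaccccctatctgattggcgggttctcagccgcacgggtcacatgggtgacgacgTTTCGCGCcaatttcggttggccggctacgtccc
Pola1 (chrX:93632106-93632405, minus strand): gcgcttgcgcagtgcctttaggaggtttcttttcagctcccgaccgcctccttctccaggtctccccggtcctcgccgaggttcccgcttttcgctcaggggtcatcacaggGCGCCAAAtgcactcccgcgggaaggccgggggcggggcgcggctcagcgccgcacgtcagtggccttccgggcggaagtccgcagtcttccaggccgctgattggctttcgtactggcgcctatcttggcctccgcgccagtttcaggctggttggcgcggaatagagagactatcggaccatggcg
A match describes the letters of the window and does not show binding in these tumours.

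Genes of glycolysis and the hypoxia response were lower in treated 2646R. Of 20 tested, 17 were lower and 0 higher, with a median log2 fold change of -1.72. The summed level of the list was 1691 to 1796 CPM in the treated 2646R tumours and 3425 to 5409 in the treated 14559R tumours. In untreated tumours 5 members were higher and 1 lower in 2646R (median -0.02), with sums of 4628 to 5953 against 3639 to 5488 CPM. The treated difference lay below the untreated one for 18 of the 20 genes.

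Vegfa, the main growth factor for blood vessels, was at 64.0, 62.5 and 60.0 CPM in treated 2646R and 180.0, 218 and 214 in treated 14559R (log2 fold change -1.71 ± 0.14, edgeR adjusted p = 8.74e-11). In untreated tumours the order was the other way round, 300.1 ± 25.9 CPM in 2646R and 198 ± 25.7 in 14559R (log2 fold change 0.60 ± 0.14, edgeR adjusted p = 0.00149), and the difference between the differences was -2.32 ± 0.20 (edgeR adjusted p = 2.7e-09). Vegfa was thus high in both untreated groups and in treated 14559R, and low in treated 2646R.

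Ankrd37, an ankyrin repeat gene induced by HIF-1, was at 3.26, 2.11 and 3.04 CPM against 59.0, 44.4 and 82.8 (log2 fold change -4.45 ± 0.38, edgeR adjusted p = 1.24e-10). Slc2a1, the glucose transporter GLUT1, was at 53.8, 49.4 and 54.4 CPM against 179, 289 and 406 (log2 fold change -2.47 ± 0.31, edgeR adjusted p = 3.1e-06). Slc16a3, the lactate exporter MCT4, was at 0.651, 0.234 and 0.506 CPM against 22.4, 40.5 and 21.2 (log2 fold change -5.82 ± 0.67, edgeR adjusted p = 8.07e-08). The 3 genes shared the direction and did not overlap between the groups.

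Bnip3, a mitophagy receptor, was lower (-2.57 ± 0.34), as were Ndrg1 (-2.53 ± 0.43), Pdk1, which limits pyruvate entry into the mitochondrion (-1.85 ± 0.22), the prolyl hydroxylase Egln3 (-1.64 ± 0.26) and the carbonic anhydrase Car9 (-1.72 ± 0.30). The glycolytic enzymes Aldoa, Eno1 and Ldha had log2 fold changes of -1.26 ± 0.16, -1.76 ± 0.24 and -0.99 ± 0.15, all called. Eno1 has a near-identical copy in the mouse genome, so its count is uncertain. Adm, the vasodilator peptide adrenomedullin, was at 1.74, 0.469 and 0 CPM against 35.4, 51.5 and 83.6 (log2 fold change -6.14 ± 0.89, edgeR adjusted p = 1.95e-05). Hk2, Pfkfb3 and Pgk1 were the 3 members not called, at -0.22 ± 0.21, 0.34 ± 0.55 and -1.42 ± 0.73. Hk2 changed sign without treated 14559R replicate 3 (log2 fold change 0.03).

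The core of the hypoxia response element, searched as ACGTG on both strands, stood in 12 of 21 windows of the list (57.1%), in 19.7% of all RefSeq windows and in 25.9% of those of tested genes. This sequence is part of the E-box CACGTG, so a match can belong to either. The windows of the 3 called members with the smallest p that hold it are shown with the matches in capitals.
Ankrd37 (chr8:45999801-46000100, minus strand): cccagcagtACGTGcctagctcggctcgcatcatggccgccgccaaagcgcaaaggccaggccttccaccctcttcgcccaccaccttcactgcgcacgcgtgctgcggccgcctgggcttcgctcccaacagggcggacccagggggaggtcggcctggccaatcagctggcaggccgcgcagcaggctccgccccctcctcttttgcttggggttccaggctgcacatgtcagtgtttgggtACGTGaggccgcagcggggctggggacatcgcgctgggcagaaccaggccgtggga
Slc16a3 (chr11:120948817-120949116, plus strand): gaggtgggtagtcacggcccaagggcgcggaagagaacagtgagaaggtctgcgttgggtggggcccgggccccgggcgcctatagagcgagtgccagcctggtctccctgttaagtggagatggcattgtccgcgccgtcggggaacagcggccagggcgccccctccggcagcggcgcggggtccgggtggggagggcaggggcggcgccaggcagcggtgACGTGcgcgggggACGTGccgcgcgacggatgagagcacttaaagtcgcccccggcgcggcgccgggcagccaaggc
Slc2a1 (chr4:119108495-119108794, plus strand): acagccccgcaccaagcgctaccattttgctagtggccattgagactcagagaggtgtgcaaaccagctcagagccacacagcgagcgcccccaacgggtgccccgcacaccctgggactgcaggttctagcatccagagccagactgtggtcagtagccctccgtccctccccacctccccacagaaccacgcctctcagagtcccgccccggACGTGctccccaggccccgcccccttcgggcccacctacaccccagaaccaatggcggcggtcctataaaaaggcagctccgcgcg
Every called member of this list was lower in treated 2646R, so the direction of these 3 genes followed from the choice.

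**Figure D3:**
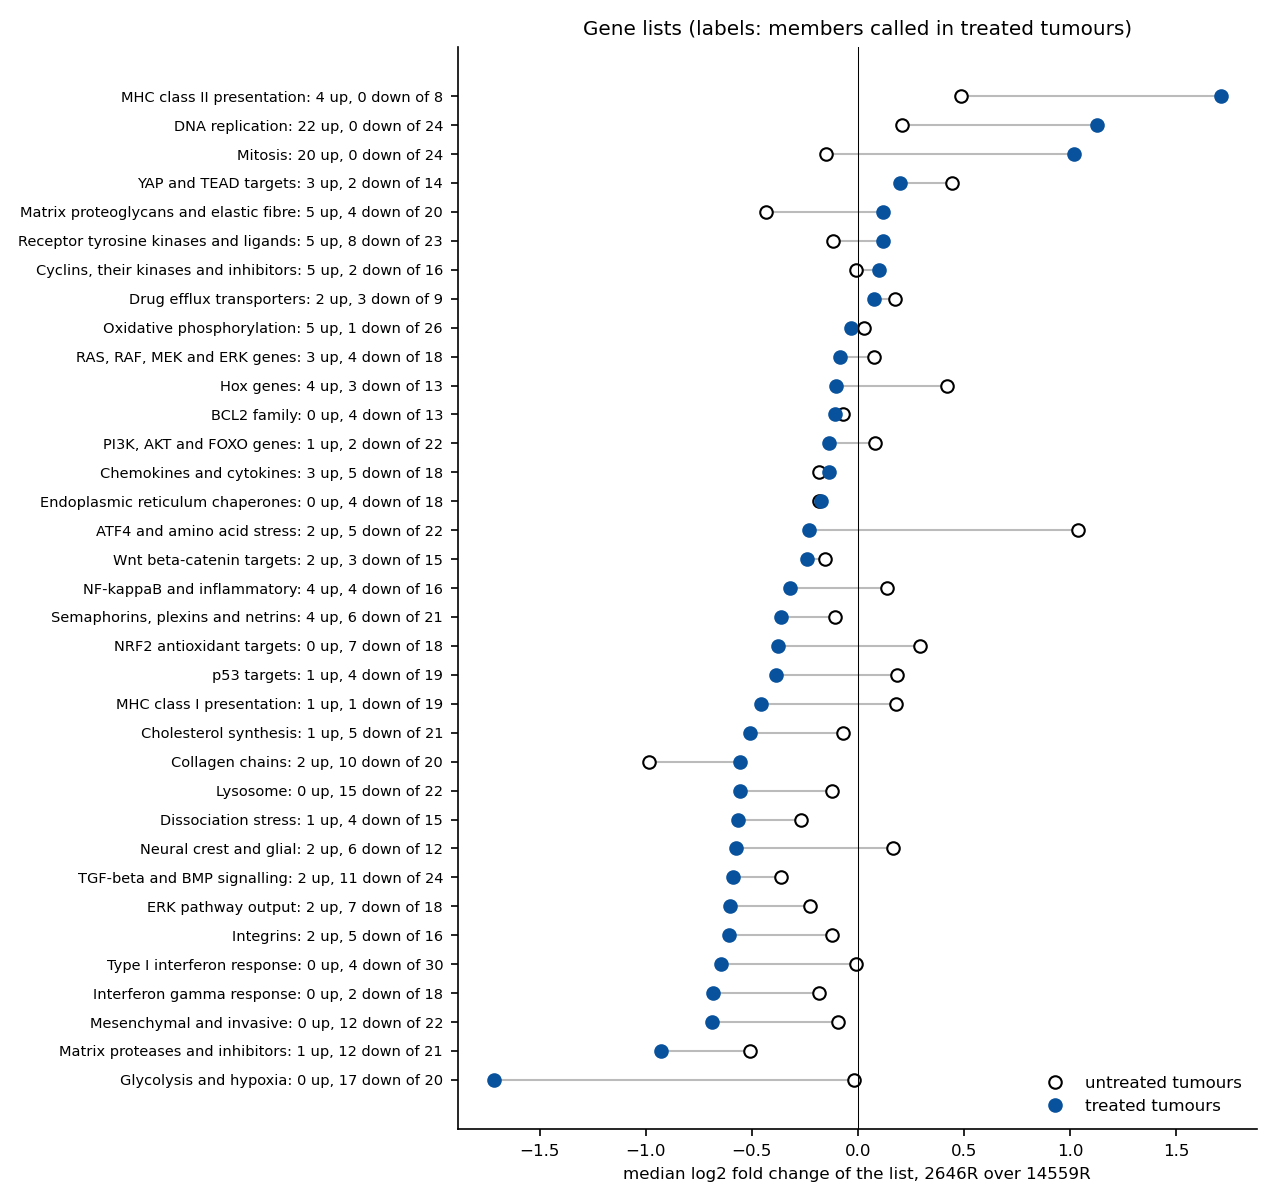
Median log2 fold change of 2646R over 14559R (horizontal axis) over the tested members of gene lists (vertical axis), with filled points for treated and open points for untreated tumours. The number of members called in treated tumours stands beside each name. Cell type marker lists and lists with fewer than 8 tested members are not drawn. The treated medians of glycolysis and hypoxia (-1.72), mitosis (1.02) and DNA replication (1.13) lie away from 0, and the untreated medians of these lists are -0.02, -0.15 and 0.21.

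Of 18 tested genes of ERK output, 2 were higher (1 without treated 14559R replicate 1 or 2) and 7 lower, beside 13.1% higher and 14.0% lower among all tested genes, with a median of -0.60, and in untreated tumours 5 were higher and 6 lower. Spry2, a feedback inhibitor of receptor signalling to ERK, was at 38.6, 42.9 and 42.8 CPM in treated 2646R and 142, 118 and 122 in treated 14559R (log2 fold change -1.62 ± 0.15, edgeR adjusted p = 9.63e-10). The feedback inhibitors Spry4 and Spred1 were lower, with log2 fold changes of -1.12 ± 0.25 and -0.85 ± 0.13. The groups did not overlap for any of these 3 genes.

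The ERK phosphatase gene Dusp6 was at 116, 160.2 and 131 CPM against 333, 231 and 293 and was not called (log2 fold change -1.07 ± 0.43, edgeR adjusted p = 0.0707), although its tumours did not overlap. Dusp4 was lower (log2 fold change -1.12 ± 0.32, edgeR adjusted p = 0.00731, and adjusted p 0.0523 to 0.0878 without treated 14559R replicate 3 or treated 2646R replicate 3). Phlda1, a target of ERK signalling, was at 364 ± 60.4 against 801 ± 153 CPM (log2 fold change -1.14 ± 0.15, edgeR adjusted p = 7.15e-07), and the early response gene Ier3 had a log2 fold change of -2.32 ± 0.54. Of the PEA3 factors, Etv1 was lower (-1.49 ± 0.21), while Etv4 and Etv5 were not called (0.27 ± 0.28 and 0.01 ± 0.21). Fosl1 was not called either (-0.28 ± 0.30), and its sign changed without treated 14559R replicate 3. Epha2, a receptor induced by ERK signalling, was higher (log2 fold change 1.32 ± 0.40, edgeR adjusted p = 0.0122, and adjusted p = 0.0875 without treated 14559R replicate 2).

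Of the 18 genes for RAS, RAF, MEK and ERK proteins and their regulators, 3 were higher (1 without treated 2646R replicate 3) and 4 lower (1 without treated 14559R replicate 2 or treated 2646R replicate 1, 2 without treated 2646R replicate 3). Map2k1, which encodes MEK1, a target of MEK inhibitors, was at 29.1, 23.9 and 24.8 CPM against 44.4, 53.2 and 54.0 (log2 fold change -0.96 ± 0.20, edgeR adjusted p = 0.000525), and in untreated tumours at 67.3 ± 5.98 against 57.1 ± 8.42. The treated groups did not overlap for this gene.

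Braf was at 93.3, 107 and 104 CPM against 68.7, 87.2 and 79.8 (log2 fold change 0.37 ± 0.14, edgeR adjusted p = 0.0486), and the call was lost without most single libraries (adjusted p 0.0855 to 0.15 without treated 14559R replicate 1 or 3 or treated 2646R replicate 2 or 3). Rasa1, a GTPase-activating protein for RAS, was lower (log2 fold change -0.51 ± 0.14, edgeR adjusted p = 0.00691, and adjusted p 0.0568 to 0.0776 without treated 14559R replicate 2 or treated 2646R replicate 1). Nf1, another such protein, was at 95.8 ± 9.95 and 90.7 ± 1.94 CPM. The counts come from transcript 3′ ends and do not report the Braf mutation of the line. Cdkn2a 3′ counts were at 1.88 ± 0.343 and 2.29 ± 1.20 CPM.

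Among 23 tested receptor tyrosine kinases and ligands, 5 were higher and 8 lower. Met was at 65.8, 63.2 and 53.9 CPM against 11.8, 19.5 and 11.6 (log2 fold change 2.09 ± 0.31, edgeR adjusted p = 5.76e-06), opposite in direction to its ligand Hgf, given above. Ephb2, a receptor of the ephrin family, was at 66.2, 51.3 and 53.4 CPM against 1.13, 0 and 4.55 (log2 fold change 4.92 ± 0.51, edgeR adjusted p = 5.69e-08). Nrg1, a ligand of Erbb3 and Erbb4, was at 9.98, 11.01 and 8.60 CPM against 0.907, 0.733 and 2.78 (log2 fold change 2.74 ± 0.58, edgeR adjusted p = 0.00048). These 3 genes were also called higher in untreated 2646R, and their treated groups did not overlap.

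Epha4 had no count in treated 14559R and was at 1.25 ± 0.161 CPM in treated 2646R, at least 5.18-fold higher. The receptor genes Pdgfra and Pdgfrb were lower (-1.51 ± 0.23, and -1.03 ± 0.29 with adjusted p 0.0589 to 0.0816 without treated 14559R replicate 2 or treated 2646R replicate 3). The EGFR ligands Ereg and Areg were lower as well (log2 fold changes -2.14 ± 0.25 and -3.69 ± 0.58), and so was Igf1 (-3.28 ± 0.54). Areg had 1 high library, treated 14559R replicate 3, among its values of 14.7, 21.98 and 95.7 CPM, against 1.95, 2.81 and 5.57 in treated 2646R. Its log2 fold change was -2.42 without that library, and its call was lost at adjusted p = 0.0522 with only the groups compared in the fit. Egfr and Axl were not called (-0.04 ± 0.31 and 0.20 ± 0.13), and Egfr changed sign without treated 14559R replicate 1 or treated 2646R replicate 1.

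Lysosome genes were lower in treated 2646R. Of 22 tested, 15 were lower and 0 higher, with a median of -0.56, and their summed level was 4942 to 5282 CPM against 11240.0 to 13466. In untreated tumours 1 was higher and 3 lower, and for 7 genes the treated difference lay below the untreated one.

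Ctsl, the lysosomal protease cathepsin L, was at 380.1, 400.1 and 403 CPM in treated 2646R and 3394, 3822 and 3756 in treated 14559R (log2 fold change -3.21 ± 0.22, edgeR adjusted p = 1.86e-11). This 1 gene held a large part of the gap between the summed levels, beside the list median of -0.56. Cathepsin B (Ctsb) was at 372, 374 and 422 CPM against 1093, 1417 and 1334 (log2 fold change -1.72 ± 0.13, edgeR adjusted p = 2.88e-11). Both genes were separated by a wide margin, and their untreated differences, -0.70 ± 0.20 and -0.47 ± 0.13, were called, with interactions of -2.51 and -1.25 (edgeR adjusted p = 3.67e-06 and 4.78e-05). The cholesterol exporter Npc1, the membrane proteins Lamp1 and Lamp2, the galactosidase Gla and cathepsin D (Ctsd) were lower, with log2 fold changes of -1.33 ± 0.15, -0.69 ± 0.12, -0.89 ± 0.13, -1.81 ± 0.31 and -0.57 ± 0.13.

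Stress response genes split by list, and 27.1% of all tested genes were called in either direction. Of 22 tested targets of ATF4, the factor that answers amino acid and endoplasmic reticulum stress, 5 were lower (3 without treated 14559R replicate 3 or treated 2646R replicate 3) and 2 higher (0 without treated 14559R replicate 2 or treated 2646R replicate 3, 1 without treated 14559R replicate 1 or treated 2646R replicate 1, 5 without treated 14559R replicate 3), with a median of -0.23. In untreated tumours 13 were higher and 0 lower in 2646R, with a median of 1.04. Ddit3, which encodes the stress factor CHOP, was at 42.8, 49.0 and 50.1 CPM against 103, 211 and 241 in treated tumours (log2 fold change -1.97 ± 0.26, edgeR adjusted p = 3.1e-06). Untreated levels were 546 ± 92.1 and 213 ± 27.5 CPM, with the order reversed (log2 fold change 1.36 ± 0.25, edgeR adjusted p = 0.000285), and the difference between the differences was -3.33 ± 0.36 (edgeR adjusted p = 2.84e-06).

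Ddit4, an inhibitor of mTORC1, was lower (log2 fold change -2.21 ± 0.27). Trib3, a pseudokinase, was at 5.64, 5.39 and 3.795 CPM against 7.26, 30.0 and 60.4 (log2 fold change -2.69 ± 0.67, edgeR adjusted p = 0.00424, and adjusted p = 0.0601 with only the groups compared in the fit), and treated 14559R replicate 3 was the highest of the 6. The same library was highest for Chac1 (5.44, 8.30 and 26.8 CPM), Slc7a11 (22.7, 37.1 and 108), and Asns (24.5, 51.3 and 149.5), an asparagine synthetase. Chac1, a glutathione-degrading enzyme, and Slc7a11, a cystine transporter, were called lower in treated 2646R, and both calls were lost without single libraries (adjusted p 0.0939 to 0.444 without treated 14559R replicate 3 or treated 2646R replicate 1 or 3 for the first, adjusted p 0.116 to 0.368 without treated 14559R replicate 3 or treated 2646R replicate 2 or 3 for the second). Asns was not called, and its log2 fold change moved from -0.58 to 0.41 without replicate 3 of treated 14559R.

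Of 18 tested NRF2 antioxidant targets, 7 were lower and 0 higher, among them the quinone reductase Nqo1 (-1.90 ± 0.35), the autophagy receptor Sqstm1 (-1.15 ± 0.15) and Srxn1 (-1.10 ± 0.21). Sqstm1 was at 281, 302 and 317 CPM against 455, 753 and 783, without overlap, and in untreated tumours it was higher in 2646R (log2 fold change 0.66 ± 0.15, edgeR adjusted p = 0.00122). Of 19 p53 targets, 4 were lower and 1, Phlda3, was higher (0.45 ± 0.15, with adjusted p 0.0694 to 0.141 without treated 14559R replicate 1 or 3 or treated 2646R replicate 3). The lower ones included the pro-apoptotic gene Bbc3 (-1.61 ± 0.27) and Cdkn1a, given above. Of 13 tested BCL2 family genes, 4 were lower and none passed upward, and Pmaip1, a pro-apoptotic member, was lower (log2 fold change -1.82 ± 0.36). For the p53 and BCL2 lists the called share lay near the 27.1% of all tested genes called in either direction.

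Of 21 cholesterol synthesis genes, 5 were lower (1 without treated 14559R replicate 2 or treated 2646R replicate 1 or 2, 3 without treated 14559R replicate 1 or 3) and 1 was higher. Among those lower was Nsdhl (log2 fold change -1.04 ± 0.25). Among 26 genes of oxidative phosphorylation, 5 were higher and 1, Cox4i1, was lower. Cox6c and Ndufb8 were higher by log2 fold changes of 0.48 ± 0.12 and 0.64 ± 0.17, and the call of Cox4i1 (-0.35 ± 0.12) was lost without any single library (adjusted p 0.0531 to 0.109 without treated 14559R replicate 1, 2 or 3 or treated 2646R replicate 1, 2 or 3). Of 18 endoplasmic reticulum chaperones, 4 were lower, with Dnajb9 (-1.29 ± 0.29) and Sel1l (-0.52 ± 0.13) having the smallest p. The called shares of the cholesterol, oxidative phosphorylation and chaperone lists lay near the 27.1% of all tested genes called in either direction.

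Pigment cell genes had low counts. Of 16 members, 7 had no count in the 6 libraries and 3 were tested, all lower in treated 2646R (1 without treated 14559R replicate 2). Mitf, the master factor of the melanocyte lineage, was at 25.4, 26.7 and 34.4 CPM against 41.3, 81.3 and 35.1 (log2 fold change -0.87 ± 0.23, edgeR adjusted p = 0.0053, adjusted p = 0.248 without treated 14559R replicate 2 and adjusted p = 0.0722 with only the groups compared in the fit). Gpnmb, a glycoprotein of melanosomes that other cells also express, was at 6.08, 7.73 and 4.30 CPM against 52.6, 73.3 and 142 (log2 fold change -3.87 ± 0.39, edgeR adjusted p = 7.9e-08), without overlap. Sox10, a neural crest factor, was at 1.76 ± 0.837 against 9.09 ± 5.84 CPM (log2 fold change -2.38 ± 0.80, edgeR adjusted p = 0.0271, and adjusted p 0.0572 to 0.149 without treated 14559R replicate 1 or 2 or treated 2646R replicate 1 or 2).

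Of 12 tested neural crest and glial genes, 2 were higher and 6 lower. Sox9 was at 647, 798 and 815 CPM against 1199, 1621 and 1869 (log2 fold change -1.05 ± 0.19, edgeR adjusted p = 0.000102), and Tfap2a, a factor of the neural crest border, was lower (log2 fold change -0.81 ± 0.17). In untreated tumours Tfap2a was higher in 2646R (0.46 ± 0.16). Nes, an intermediate filament of progenitors, and Gfra2, a receptor of GDNF family ligands, were higher by log2 fold changes of 0.80 ± 0.21 and 1.72 ± 0.48, the latter not called at adjusted p = 0.15 with only the groups compared in the fit.

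Of 22 mesenchymal and invasive genes, 12 were lower and 0 higher, with a median of -0.69. In untreated tumours 4 were lower and 3 higher, with a median of -0.10. Other settings called 1 or 2 members higher in treated 2646R. Twist2, a basic helix-loop-helix factor of mesenchyme, was at 1.74, 0.937 and 3.04 CPM against 31.3, 54.5 and 58.3 (log2 fold change -4.65 ± 0.57, edgeR adjusted p = 9.32e-07), without overlap, and Snai2, a repressor of epithelial genes, was lower (log2 fold change -1.49 ± 0.33). Vimentin (Vim) was at 3223 ± 219 against 5436 ± 167 CPM (log2 fold change -0.75 ± 0.21, edgeR adjusted p = 0.00761) and fibronectin (Fn1) lower (log2 fold change -1.01 ± 0.17). Cdh2 and Tnc were not called (0.13 ± 0.21 and 1.23 ± 0.49).

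Some contractile genes had the opposite direction. Acta2, smooth muscle actin, was at 661, 920.1 and 675 CPM in treated 2646R and 25.6, 11.2 and 13.6 in treated 14559R (log2 fold change 5.47 ± 0.54, edgeR adjusted p = 2e-07). In untreated tumours it was at 98.1 ± 41.6 and 13.3 ± 2.10 CPM (log2 fold change 2.87 ± 0.52, edgeR adjusted p = 0.00045), and in treated 2646TN and 14559TN tumours at 406 ± 225 and 133 ± 39.0. Myl9, a regulatory myosin light chain, was at 35.2, 47.6 and 43.8 CPM against 0.907, 0 and 1.26 (log2 fold change 5.81 ± 0.58, edgeR adjusted p = 2.52e-08). Tagln had no count in treated 14559R and was at 1.85 ± 1.46 CPM in treated 2646R, at least 7.45-fold higher, a call lost without treated 2646R replicate 3 (adjusted p = 0.0679). Of 7 tested pericyte and smooth muscle markers, which include Acta2 and Tagln, 2 were higher (1 without treated 2646R replicate 3) and 2 lower (1 without treated 14559R replicate 2 or treated 2646R replicate 3), with sums of 883 to 1162 CPM against 329 to 585. Acta2 alone held a mean of 752 of 993 CPM in treated 2646R and 16.8 of 462 in treated 14559R. The median of the list was -0.63, and 5 of the 7 members lay below 0. In these bulk samples fewer cells of a type and less RNA per cell cannot be told apart, and the part of such cells in the Acta2 difference was not tested. Acta2 was thus at its highest in treated 2646R and near its lowest in treated 14559R among these 6 groups.

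Collagen and matrix protease genes were more often lower than higher in treated 2646R. Of 20 collagen chains, 10 were lower and 2 higher (0 without treated 14559R replicate 2, 1 without treated 14559R replicate 3 or treated 2646R replicate 1 or 2), with a median of -0.56, and in untreated tumours 12 were lower and 0 higher (median -0.98). Col15a1, a collagen of basement membrane zones, was at 13.0, 12.9 and 15.9 CPM against 1056, 655 and 612 (log2 fold change -5.79 ± 0.39, edgeR adjusted p = 3.9e-10), a gap also present untreated (-4.60 ± 0.36). Col3a1, a fibrillar collagen, was lower (log2 fold change -1.73 ± 0.26), as was Col4a2 (-1.70 ± 0.20). Col1a1 went the other way, at 4312, 4301 and 3300.0 CPM against 2859.6, 1446 and 1333 (log2 fold change 1.08 ± 0.36, edgeR adjusted p = 0.0278, and adjusted p 0.063 to 0.121 without treated 14559R replicate 2 or 3 or treated 2646R replicate 1 or 2).

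Of 20 tested proteoglycan and elastic fibre genes, 5 were higher (2 without treated 14559R replicate 2, 3 without treated 14559R replicate 3 or treated 2646R replicate 3) and 4 lower (2 without treated 14559R replicate 1). The small leucine-rich proteoglycans Dcn and Lum were low in treated 2646R, at 124, 169 and 146 against 2853, 2916 and 1658 CPM for Dcn (log2 fold change -4.08 ± 0.39, edgeR adjusted p = 8.84e-08) and 3.26, 2.11 and 0.506 against 117, 75.0 and 36.9 for Lum (log2 fold change -5.23 ± 0.62, edgeR adjusted p = 1.17e-06). Ogn, of the same family, had the opposite direction, at 19.5, 24.4 and 11.9 against 1.81, 1.47 and 2.53 CPM (log2 fold change 3.25 ± 0.63, edgeR adjusted p = 0.000426). None of the 3 overlapped between the treated groups. Ltbp2, a protein of elastic microfibrils, was higher by a log2 fold change of 3.28 ± 0.80.

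Of 21 matrix proteases and inhibitors, 12 were lower and 1, Mmp9, was higher. Mmp3, or stromelysin, was at 23.2, 36.3 and 25.0 CPM against 354, 369 and 676 (log2 fold change -4.05 ± 0.48, edgeR adjusted p = 1.8e-06), and Mmp9, a gelatinase, at 498, 383 and 283 against 96.1, 36.9 and 88.4 (log2 fold change 2.39 ± 0.46, edgeR adjusted p = 0.000535). The groups did not overlap for either. Mmp2, Mmp12, Mmp13, Mmp19, Adamts1 and the inhibitor Timp3 were lower, with log2 fold changes of -1.12 ± 0.25, -4.79 ± 1.00, -2.87 ± 0.71, -2.56 ± 0.30, -1.71 ± 0.22 and -2.09 ± 0.38. Mmp3 and Mmp9 were called in the same directions in untreated tumours, by -3.50 ± 0.46 and 1.95 ± 0.45.

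Of 24 TGF-beta and BMP pathway genes, 11 were lower and 2 higher. Bmp2 and Bmp4, ligands of 1 receptor family, had opposite directions, Bmp2 at 152, 94.4 and 65.8 CPM against 563, 979 and 727 (log2 fold change -2.86 ± 0.27, edgeR adjusted p = 3.71e-08) and Bmp4 at 21.5, 15.7 and 31.1 against 1.36, 1.22 and 1.52 (log2 fold change 4.03 ± 0.48, edgeR adjusted p = 3.66e-07). Inhbb, an activin subunit, was lower (log2 fold change -4.59 ± 0.72), as were the coreceptor Tgfbr3 (-1.84 ± 0.23) and Id2 (-1.66 ± 0.22). The ligands Tgfb1 and Tgfb2 were lower (-1.11 ± 0.24 and -1.14 ± 0.28) and Tgfb3 higher (0.92 ± 0.21). Tgfbi, a matrix protein induced by TGF-beta, was lower (log2 fold change -1.13 ± 0.13).

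Immune genes are described with the level of immune cell markers, since the sort could retain other cells. Of 13 tested macrophage markers, 6 were higher in treated 2646R (2 without treated 14559R replicate 3, 3 without treated 2646R replicate 1) and 0 lower, and in untreated tumours none passed the test in either direction. The summed level of the list was 116 to 142 CPM in treated 2646R and 22.7 to 44.2 in treated 14559R, with 37.2 to 75.7 and 24.3 to 57.2 in the untreated groups. Lyz2, lysozyme, was at 45.4, 32.3 and 51.4 CPM against 8.62, 3.66 and 4.55 (log2 fold change 2.92 ± 0.48, edgeR adjusted p = 4.61e-05). C1qa, C1qb, Fcgr3, Mrc1 and Aif1 were the other called members, at 1.68 to 2.65 on the log2 scale. Without treated 14559R replicate 3, C1qa, C1qb, Mrc1 and Aif1 lost their call (edgeR adjusted p 0.0609 to 0.155). Without treated 2646R replicate 1, Fcgr3, Mrc1 and Aif1 lost it (edgeR adjusted p 0.076 to 0.0981). C1qa, Mrc1 and Aif1 lost it without other single libraries as well. Ptprc, which encodes CD45, was at 1.74, 1.64 and 1.01 CPM against 0, 1.47 and 0 and was not called (edgeR adjusted p = 0.419), and Fcgr1, an Fc receptor of macrophages, had no count in treated 14559R.

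MHC class II genes, which macrophages and other antigen-presenting cells express, moved with these markers. Of 8 tested, 4 were higher (1 without treated 14559R replicate 3, 2 without treated 14559R replicate 1 or treated 2646R replicate 1, 2 or 3), with sums of 88.1 to 106 CPM against 12.6 to 46.6. Cd74, the invariant chain, was at 13.5, 18.04 and 18.2 CPM against 3.63, 7.57 and 3.03 (log2 fold change 1.80 ± 0.53, edgeR adjusted p = 0.0127, and adjusted p 0.0529 to 0.0605 without treated 14559R replicate 1 or 3), and H2-DMb1 had 3 counts over the treated 14559R tumours, a ratio of 13.6 (95% interval 4.65 to 66.0). H2-Aa and H2-Ab1 were not called (1.62 ± 0.68 and 1.51 ± 0.67). The part of macrophage RNA in the class II difference was not tested.

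**Figure D4:**
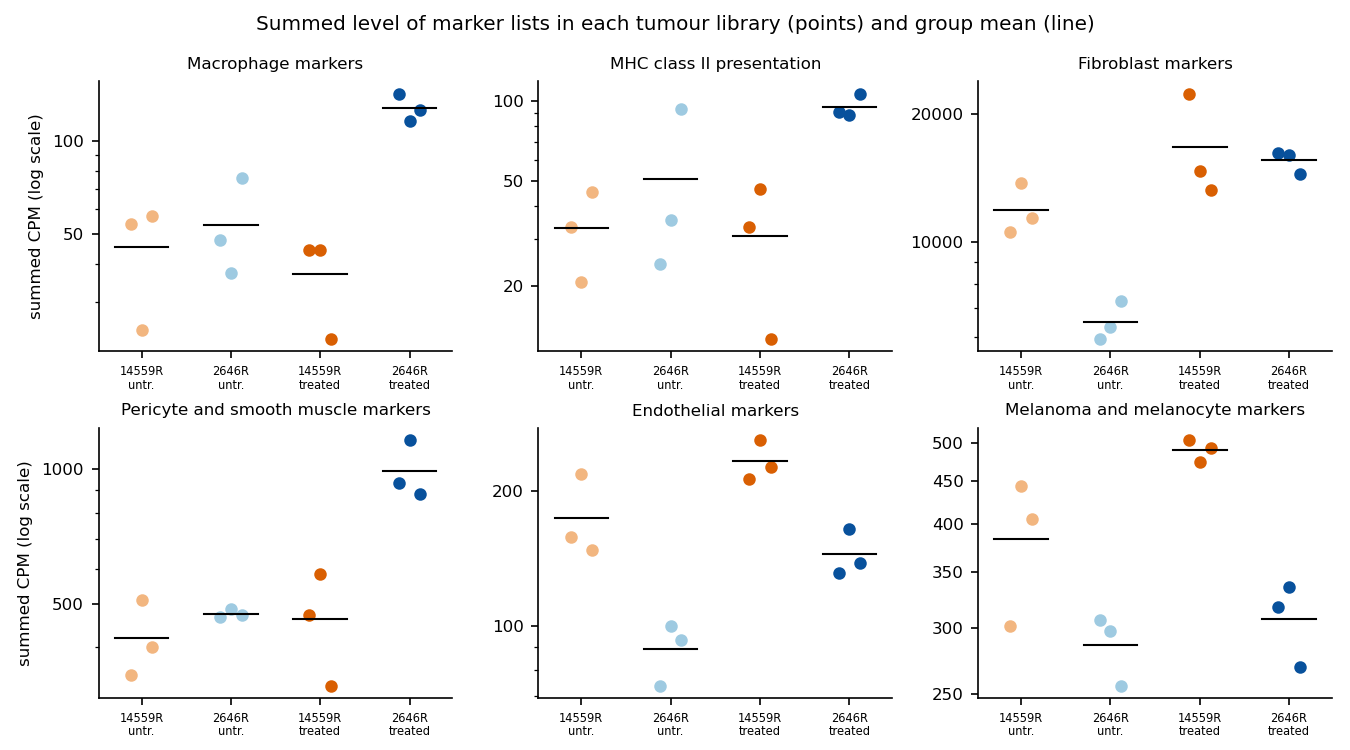
Summed CPM of the marker lists (logarithmic vertical axis) in each tumour of treated and untreated 2646R and 14559R, 1 point per tumour and a line at the group mean. The macrophage sums of treated 2646R (116 to 142 CPM) lie above those of treated 14559R (22.7 to 44.2 CPM), and the endothelial sums below (131 to 164 against 212 to 259 CPM). Within the endothelial list, Plvap alone was at a mean of 32.5 against 111 CPM.

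Of 30 tested type I interferon genes, 4 were lower (1 without treated 14559R replicate 1 or treated 2646R replicate 2, 2 without treated 2646R replicate 1, 8 without treated 14559R replicate 3) and 0 higher, with a median of -0.65. The 4 of 30 are a share near the 14.0% of all tested genes called lower. Without a filter on low counts, 12 were called lower, and 1 with only the groups compared in the fit. Stat2, a factor of interferon signalling, was at 10.4, 14.5 and 19.2 CPM against 42.9, 39.6 and 17.4 (log2 fold change -1.19 ± 0.27, edgeR adjusted p = 0.00112), and Ifi44 at 8.90, 13.6 and 21.3 against 93.0, 66.4 and 14.4 (log2 fold change -2.01 ± 0.58, edgeR adjusted p = 0.0126, and adjusted p 0.0514 to 0.1 without treated 14559R replicate 1 or treated 2646R replicate 1 or 2). In both genes treated 14559R replicate 3 was low and lay within the range of treated 2646R. B2m, the light chain of MHC class I, was not called (log2 fold change -0.77 ± 0.32).

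Of 18 tested interferon gamma genes, 2 were lower (0 without treated 14559R replicate 2 or treated 2646R replicate 1 or 2, 1 without treated 14559R replicate 1) and none higher, and of 19 class I presentation genes, 1 was lower, H2-Q7 (-3.78 ± 1.09, with adjusted p 0.0569 to 0.0694 without treated 14559R replicate 2 or treated 2646R replicate 1 or 2), and 1 higher, Psme1, a proteasome activator subunit (0.60 ± 0.16). Without treated 14559R replicate 3, 3 interferon gamma and 2 class I genes were lower. Without a filter on low counts, 8 interferon gamma genes were called lower and 2 higher, and 6 class I genes lower and 4 higher. Iigp1, an interferon-induced GTPase, varied widely in treated 14559R (268, 580.2 and 80.8 CPM against 71.0, 49.2 and 119.7) and its call was lost without single libraries (adjusted p 0.0843 to 0.239 without treated 14559R replicate 2 or treated 2646R replicate 1 or 2).

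Of 18 chemokines and cytokines, 3 were higher and 5 lower (3 without treated 14559R replicate 1 or treated 2646R replicate 1). Cxcl12, a chemokine that binds Cxcr4, was at 250.1, 335 and 395 CPM against 127, 52.5 and 34.6 (log2 fold change 2.19 ± 0.55, edgeR adjusted p = 0.00494). Csf1, the growth factor of macrophages, was at 69.0, 76.1 and 73.6 CPM against 31.5, 31.5 and 25.8 (log2 fold change 1.30 ± 0.25, edgeR adjusted p = 0.000226). Both were separated between the groups, and Csf1 was also called higher in untreated 2646R (1.22 ± 0.26). Ccl5 was higher by a log2 fold change of 2.13 ± 0.69 (edgeR adjusted p = 0.0243, and adjusted p 0.0513 to 0.0956 without treated 14559R replicate 1 or 3 or treated 2646R replicate 1 or 3).

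Il33, a cytokine of the IL-1 family, was at 37.3, 42.2 and 27.3 CPM against 239, 384 and 263 (log2 fold change -3.05 ± 0.41, edgeR adjusted p = 8.03e-06), and Il11, of the IL-6 family, at 11.3, 11.9 and 9.36 against 73.7, 195 and 287 (log2 fold change -4.08 ± 0.50, edgeR adjusted p = 3.1e-06). The monocyte chemoattractants Ccl2 and Ccl7 were lower, with log2 fold changes of -1.97 ± 0.57 and -2.42 ± 0.69 (edgeR adjusted p = 0.0125 and 0.011, both lost without single libraries, at adjusted p 0.0533 to 0.0563 without treated 14559R replicate 1 or treated 2646R replicate 1 and adjusted p 0.0521 to 0.0604 without treated 14559R replicate 1 or treated 2646R replicate 1 or 2). Of 16 NF-kappaB and inflammatory genes, 4 were higher and 4 lower. Vcam1, an adhesion molecule, was at 263, 308 and 245 CPM against 62.4, 70.8 and 44.2 (log2 fold change 2.20 ± 0.33, edgeR adjusted p = 2.39e-05), and Cebpd, a factor of the acute phase response, at 18.4, 14.99 and 24.8 against 254, 234 and 249 (log2 fold change -3.67 ± 0.37, edgeR adjusted p = 1.27e-07). Nfkbie was higher by a log2 fold change of 2.01 ± 0.37 and Cebpb lower (log2 fold change -1.49 ± 0.24).

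Called fibroblast markers were mostly lower in treated 2646R, and endothelial markers were split in direction. Of 12 fibroblast markers, many of which melanoma cells of a mesenchymal state also express, 8 were lower and 1, Col1a1, was higher, with a median of -1.71. Fap, a surface protease of activated fibroblasts, was lower (log2 fold change -1.69 ± 0.27), as was Dpt (-3.46 ± 0.55), and the untreated count was 7 lower and 0 higher. The summed fibroblast list overlapped between the groups, at 14423 to 16182 CPM in treated 2646R and 13241 to 22248 in treated 14559R. Col1a2 and Col1a1 alone held means of 9617 and 3971 of 15548 CPM in treated 2646R. In treated 14559R they held 6301 and 1880 of 16712 CPM, so the sum says little about the other members.

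Of 8 tested endothelial markers, 2 were lower, Plvap (-1.77 ± 0.27) and Cdh5, which had 2 counts over treated 2646R and was at 1.81, 2.44 and 36.9 CPM in treated 14559R, mostly in replicate 3. The median of the 8 was 0.20, with 4 above and 4 below 0. Plvap was at a mean of 32.5 against 111 CPM, beside mean sums of the list of 145 against 233. Of 8 adipocyte markers 1 was tested, Fabp4, a fatty acid carrier, at 0.868, 0.937 and 1.26 CPM against 3.40, 0.733 and 16.7 (log2 fold change -2.72 ± 0.88, edgeR adjusted p = 0.0187, and adjusted p 0.0709 to 0.477 without treated 14559R replicate 3 or treated 2646R replicate 1 or 2). The sums of that list were 3.85, 0.977 and 18.7 CPM in treated 14559R and at most 1.77 in treated 2646R, so replicate 3 was the highest here too. Lymphocyte markers summed to at most 0.651 CPM in any of the 6 libraries, and neutrophil markers to at most 5.05. None of the 2 keratinocyte, 2 skeletal muscle and 4 erythroid markers tested was called, and 3 of 6 melanoma and melanocyte markers were lower (1 without treated 14559R replicate 2). The part of these cells in the matrix differences above was not tested.

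Among genes that bear on drug exposure, 5 of 9 tested efflux transporters were called, 2 higher (1 without treated 14559R replicate 1 or 2 or treated 2646R replicate 1 or 2) and 3 lower (1 without treated 2646R replicate 2 or 3). Abcg2, a transporter of many kinase inhibitors, was at 51.2, 60.2 and 69.1 CPM against 17.2, 12.2 and 12.9 (log2 fold change 2.09 ± 0.26, edgeR adjusted p = 2.51e-07), and Abcb1a, a P-glycoprotein gene, at 7.38, 5.39 and 4.81 against 28.1, 43.7 and 34.3 (log2 fold change -2.58 ± 0.37, edgeR adjusted p = 3.42e-06). The treated groups did not overlap for either. Neither gene was called apart in untreated tumours (edgeR adjusted p = 0.702 and 0.916), and the treated difference differed from the untreated one in both, by 1.91 ± 0.37 and -2.65 ± 0.49 (edgeR adjusted p = 0.00124 and 0.000846). Abcb1b, the paralogue of Abcb1a, was higher by a log2 fold change of 0.64 ± 0.24 (edgeR adjusted p = 0.0468, and adjusted p 0.0887 to 0.215 without treated 14559R replicate 1 or 2 or treated 2646R replicate 1 or 2), and 3′ counts of such near copies may share reads.

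Of 22 PI3K, AKT and FOXO genes, 1, Foxo1, was higher (1.67 ± 0.40, and 2 without treated 14559R replicate 1 or 2 or treated 2646R replicate 3 for the count), and 2 were lower (1 without treated 14559R replicate 1), Foxo3 (-0.65 ± 0.16, with adjusted p = 0.053 without treated 14559R replicate 1) and Foxo4 (-1.21 ± 0.21). These are transcription factors that AKT holds out of the nucleus.

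Of 14 YAP and TEAD targets, 3 were higher and 2 lower (0 without treated 2646R replicate 1 or 3, 1 without treated 14559R replicate 2). Ankrd1, a common readout of YAP, was at 6.73, 12.4 and 15.7 CPM against 2 counts over treated 14559R, a ratio of 70.9 (95% interval 19.6 to 586), and Ajuba, a LIM protein, was higher by a log2 fold change of 0.93 ± 0.24. Of 15 Wnt targets, 2 were higher (1 without treated 14559R replicate 2 or treated 2646R replicate 1 or 2) and 3 lower, with Tcf7l2, a factor that pairs with beta-catenin, at 191, 160.0 and 169.8 CPM against 78.2, 48.6 and 50.01 (log2 fold change 1.56 ± 0.19, edgeR adjusted p = 1.24e-07). The antagonist Dkk2 was lower (log2 fold change -1.19 ± 0.17).

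Positional and guidance genes were called in both directions, beside 13.1% higher and 14.0% lower among all tested genes. Of 13 tested Hox genes, 4 were higher and 3 lower (1 without treated 2646R replicate 3). Hoxc4 and Hoxc6, neighbours in the Hoxc cluster on chromosome 15, were higher by log2 fold changes of 2.57 ± 0.42 and 1.06 ± 0.17, and Hoxb4 was lower (log2 fold change -0.70 ± 0.17). Of 21 semaphorins, plexins and netrins, 4 were higher and 6 lower. The receptors Plxnb2 and Plxnd1 were higher (0.90 ± 0.12 and 1.19 ± 0.25), and the ligands Sema7a and Sema3a lower (-1.54 ± 0.20 and -0.92 ± 0.14). Of 16 integrins, 2 were higher and 5 lower (3 without treated 14559R replicate 2). Itga1, a collagen receptor subunit, was at 76.4, 60.2 and 66.8 CPM against 454, 253 and 350.1 (log2 fold change -2.38 ± 0.34, edgeR adjusted p = 1.34e-05), and Itga3, a laminin receptor subunit, was higher by a log2 fold change of 1.77 ± 0.46 (adjusted p = 0.127 with only the groups compared in the fit).

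Of 15 genes that tissue dissociation can induce, 1 was higher, Hsph1 (0.96 ± 0.22), and 4 were lower (2 without treated 14559R replicate 3 or treated 2646R replicate 1, but 7 with only the groups compared in the fit and 8 with no filter on low counts), among them Jun (-0.82 ± 0.20) and Ier3, given above. The part of tissue handling in these differences was not tested.

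Genes with the widest treatment-dependent gaps showed different forms. By the naming rule, the largest interactions above 0 were those of Angptl4, Col14a1, Gdpd2, Mfap4 and Adcy3. Col14a1, a collagen associated with fibrils, was at 7.16, 6.79 and 7.08 CPM against 0.227, 0.488 and 1.52 in treated tumours (log2 fold change 3.22 ± 0.94, edgeR adjusted p = 0.0124, and adjusted p 0.0516 to 0.056 without treated 14559R replicate 1 or 2) and lower in untreated 2646R (-3.18 ± 1.01), an interaction of 6.39 ± 1.38. Without untreated 14559R replicate 2 the untreated difference was -0.195 (edgeR adjusted p = 0.934) and the interaction 3.44 (edgeR adjusted p = 0.118), both no longer called. Mfap4, a microfibril protein, was at 34.5 ± 10.2 against 11.1 ± 8.41 CPM treated and 1.05 ± 1.21 against 10.6 ± 11.9 untreated. The treated call of Mfap4 was lost without single libraries (adjusted p 0.103 to 0.161 without treated 14559R replicate 2 or 3 or treated 2646R replicate 1 or 3). Gdpd2 was higher by a log2 fold change of 3.07 ± 0.74 in treated tumours. Adcy3, an adenylate cyclase, was lower in both settings, at 1.04 ± 0.554 against 11.1 ± 4.44 CPM treated, and had no count in untreated 2646R.

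By the same rule, the largest interactions below 0 were those of Adm, Trib3, Car6, Ankrd37 and Gfra1. Car6, a secreted carbonic anhydrase, was at 69.9 ± 7.41 CPM in untreated 2646R and 16.9 ± 7.08 in untreated 14559R, and at 1.19 ± 0.325 and 5.08 ± 3.15 under treatment, an interaction of -4.12 ± 0.73 (edgeR adjusted p = 0.000573). Its treated call was lost without treated 2646R replicate 1 or treated 14559R replicate 3 (adjusted p 0.0602 and 0.112). Gfra1, a GDNF receptor, followed the same order of levels, at 62.7 ± 1.70 and 35.1 ± 3.11 untreated and 2.40 ± 1.44 and 21.1 ± 16.1 treated (interaction -3.98 ± 0.69, edgeR adjusted p = 0.000609).

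The difference between the treated R clones was also tested against that between treated 2646TN and treated 14559TN. It differed for 2756 genes (20.7%), above 0 for 1097 (8.26%) and below 0 for 1659 (12.5%). This contrast shares the 6 treated libraries with the main one, so its values are given side by side. Birc5 was higher in 2646R than 14559R by 1.33, whereas in the TN clones it was at 190.1 ± 48.7 and 14.0 ± 4.24 CPM, so the TN gap was larger by 2.45 (contrast -2.45 ± 0.26, edgeR adjusted p = 6.48e-08). Of 24 mitosis genes, 21 were called below 0 in this contrast and 0 above, with a median of -2.36. Of 24 DNA replication genes, 14 were called below 0 and 0 above, with a median of -1.41. For the hypoxia gene Slc2a1 the treated TN clones lay close to each other, at 30.6 ± 5.87 and 28.9 ± 11.8 CPM, and the contrast was -2.55 ± 0.46 (edgeR adjusted p = 0.000393). Treated 14559R, at 292 ± 114 CPM, thus stood above the other 3 treated groups.

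By the naming rule, the largest contrasts above 0 included those of Angptl4, Pappa, Tshz3 and Plxdc2. Tshz3 and Plxdc2 had no count in treated 2646TN and were at 26.9 ± 5.76 and 109 ± 2.47 CPM in treated 14559TN, beside 25.1 ± 2.58 and 0.873 ± 0.341 in treated 2646R and 95.1 ± 12.5 and 15.1 ± 7.35 in treated 14559R. Pappa, a protease of IGF-binding proteins, had no count in treated 14559R and was at 5.64, 2.34 and 1.77 CPM in treated 2646R, at least 13.9-fold higher, but was at 0.893 ± 0.562 and 7.12 ± 2.30 CPM in treated 2646TN and 14559TN. Below 0 the largest were those of Dlk1, Cacna1b, Cdh5, Col23a1 and Nkd2. Cacna1b, a calcium channel subunit, was at 0.223 ± 0.217 against 22.3 ± 7.998 CPM in the treated R clones and 1.01 ± 1.16 against 0 ± 0 in the TN clones.

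Higher calls were unevenly spread over the genome, a pattern chosen after its values were seen. On chromosomes 6, 15 and 19, 552 of 1623 tested genes (34.0%) were higher in treated 2646R, against 1180 of 11639 (10.1%) on the other autosomes and X. The median log2 fold changes of the 3 chromosomes were 0.40, 0.41 and 0.48 in treated tumours and 0.44, 0.49 and 0.52 in untreated ones, and those of the others were -0.15 to 0.06 in treated tumours. In blocks of 50 genes with a mean of at least 20 CPM, all 17 blocks on these chromosomes had positive treated medians (0.18 to 0.57), and the 116 other blocks ran from -0.36 to 0.34.

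Braf, Met, Ccnd2, Mcm2 and Abcg2 lie on chromosome 6, and Fen1, Kif11, Acta2 and Tcf7l2 on chromosome 19. These examples were picked from the genes higher in treated 2646R. Their log2 fold changes ran from 0.37 (Braf) to 5.47 (Acta2), beside medians of 0.40 and 0.48 for the 2 chromosomes. Over chromosomes 6, 15 and 19, 91 of 1623 genes (5.61%) were called lower. A level per library, the median over a chromosome's genes of log2 (CPM + 1) less each gene's mean over the 12 libraries of both clones, showed where single tumours stood. For chromosome 15 it was 0.19 to 0.28 in treated 2646R, -0.26 and -0.25 in treated 14559R replicates 1 and 2, and 0.06 in replicate 3. For chromosome 6, replicate 3 was at -0.07 beside -0.20 and -0.20 in the other 2 tumours of its group, and for chromosome 19 it was at -0.21, within the group's range of -0.25 to -0.19. Without it the medians of chromosomes 6 and 15 were 0.46 and 0.50. DNA copy number was not measured, and its part in these levels was not tested. In the treated TN clones the medians for 2646TN over 14559TN were -0.01, 0.23 and 0.55 on chromosomes 6, 15 and 19.

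**Figure D5:**
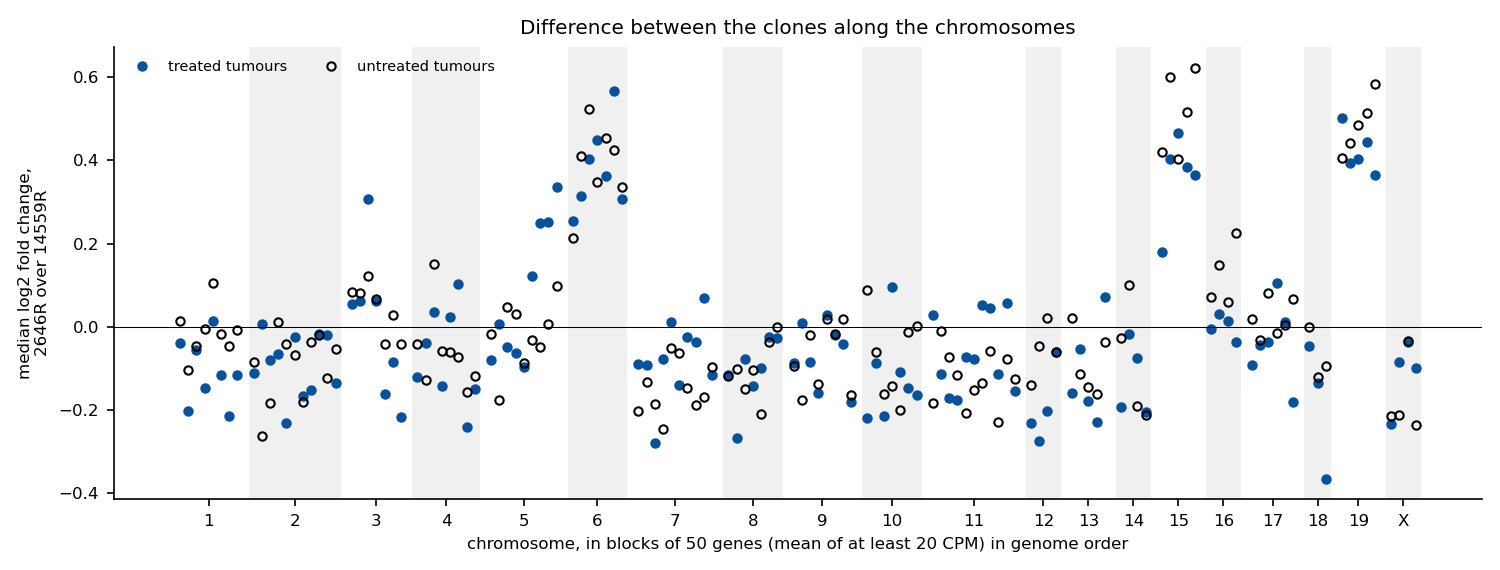
Median log2 fold change of 2646R over 14559R in blocks of 50 genes along the genome, with the chromosome on the horizontal axis, filled points for treated and open points for untreated tumours. The blocks of chromosomes 6, 15 and 19 lie above 0 in treated tumours (0.18 to 0.57) and in untreated tumours (0.21 to 0.62).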

How the data were processed

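QuantSeq 3′ libraries were made from tumour cells, per the labels' protocols. The authors deposited raw read counts per gene for each library, and STAR 2.6.0c, featureCounts 1.6.2 and the build GRCm38 are named in the submitters' processing notes. The files list 54532 features, of which 54409 were matched to a symbol in GENCODE vM21. Counts of 30 libraries in 10 groups (3022801 to 5278453 counts each) entered 1 fit with edgeR 4.0.16 in R 4.3.3: filterByExpr by group, TMM factors and the robust quasi-likelihood test, with Benjamini-Hochberg adjustment over 13286 genes and 20 residual degrees of freedom. The groups come from the clone name and treatment in the labels. Standard errors are the log2 fold change over the root of the F statistic. The contrasts were treated 2646R against treated 14559R, the same untreated, the difference between these, and the difference from the treated TN clones. The test was also run on simulated data with known changes. Those data held only the treated R groups and the same spread for every gene. They did not cover the fit of all groups or the further contrasts.

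Genes were named by rule: the 12 largest called changes in each direction among genes that reached a mean of 5 CPM in either clone, whose tumours did not overlap and whose symbol is no clone or accession name, the 2 called members of smallest p in each direction of 48 lists, a set of anchor genes, and the 5 largest in each direction of the 2 further contrasts. The genes of the further contrasts had to be called there, reach a mean of 5 CPM in any of the groups contrasted and meet the symbol rule. They also had to show no overlap between the treated R clones, so that separation was set by the choice. A further 71 genes were named after their values were seen. Some genes these choices cover are not reported here, but stay in the counts. The members and lists were chosen with earlier results of these data known. Folds against a group at 0 use 3 counts over the group, and 95% intervals of ratios and all such bounds cover counting error only. Promoter windows came from RefSeq. Principal components used the 1000 most variable genes on a log scale with a prior count of 2, and chromosome levels used genes with a mean of at least 20 CPM and a pseudocount of 1. Alternatives were DESeq2 1.42.0, median-of-ratios size factors, no or a stricter filter on low counts (5 CPM in 3 libraries), only the compared groups in the fit, and leaving out each tumour. Figures were drawn with matplotlib 3.10.9.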

Additional observations from a re-analysis of the deposited data

Results flagged for a closer look

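For 80 named genes the difference between 2646R and 14559R under RAFi/MEKi differed from the difference without treatment in the test of that difference itself (edgeR interaction, adjusted p under 0.05, which 8.38% of the genes passed). Each value below is the treated log2 fold change of 2646R over 14559R less the untreated one, so a value below 0 means a lower treated difference. Of these tests, 49 were called under every alternative run and 31 were lost under at least 1, and none changed sign. Among genes of mitosis and DNA replication, the value was 1.50 for Birc5, 1.08 for Ccnb1, 1.59 for Ccne2, 0.98 for Cenpf, 1.52 for Kif11, 1.16 for Kif23, 1.48 for Mcm10, 1.86 for Mcm5, 0.95 for Mcm7, 1.52 for Mki67, 1.56 for Plk1 and 1.32 for Top2a. At least 1 alternative ended the call of Ccnb1, Cenpf, Kif11 and Mcm7. Among genes of glycolysis and hypoxia, the value was -4.95 for Adm, -1.21 for Aldoa, -4.00 for Ankrd37, -2.49 for Bnip3, -2.57 for Car9, -1.58 for Egln3, -2.27 for Eno1, -1.21 for Hk2, -0.997 for Ldha, -3.62 for Ndrg1, -1.81 for Pdk1, -2.96 for Pgk1, -2.81 for Slc16a3, -3.06 for Slc2a1 and -2.32 for Vegfa. Of these, the tests of Egln3, Pgk1 and Slc16a3 were lost under at least 1 alternative. Among lysosome genes and the melanosome gene Gpnmb, the value was -1.25 for Ctsb, -0.65 for Ctsd, -2.51 for Ctsl, -1.99 for Gla, -0.58 for Lamp1, -1.15 for Npc1 and -3.61 for Gpnmb. At least 1 alternative ended the call of Ctsd and Lamp1. Among genes of stress responses, the value was -1.91 for Asns, -1.46 for Bbc3, -2.02 for Cdkn1a, -2.23 for Chac1, -3.33 for Ddit3, -2.18 for Ddit4, -1.29 for Dnajb9, -2.18 for Nqo1, -2.22 for Slc7a11, -1.81 for Sqstm1, -1.14 for Srxn1 and -4.52 for Trib3. Of these, the tests of Asns, Bbc3, Chac1, Dnajb9, Slc7a11 and Srxn1 were lost under at least 1 alternative. Among genes of ERK signalling and growth factor ligands, the value was -3.22 for Areg, -2.44 for Dusp4, -1.55 for Ereg, -1.38 for Fosl1, -3.03 for Igf1, -1.20 for Map2k1, -0.68 for Phlda1 and -0.92 for Spry2. At least 1 alternative ended the call of Areg, Fosl1, Igf1 and Phlda1. Among genes of cell identity, matrix and BMP signalling, the value was 2.597 for Acta2, -1.62 for Bmp2, 6.39 for Col14a1, 1.72 for Col1a1, 0.81 for Dkk2, -1.17 for Fn1, -1.24 for Id2, 4.90 for Mfap4, -1.63 for Snai2, -1.48 for Sox9, -1.27 for Tfap2a and -0.96 for Tgfbi. Of these, the tests of Acta2, Col14a1, Col1a1, Dkk2, Mfap4 and Snai2 were lost under at least 1 alternative. Among immune and inflammatory genes, the value was -1.89 for Cebpb, -1.96 for Cebpd, 2.84 for Cxcl12, 3.89 for H2-DMb1, -2.90 for Il11, -3.69 for Serping1 and 1.55 for Vcam1. At least 1 alternative ended the call of Cxcl12, H2-DMb1, Il11, Serping1 and Vcam1. Among drug transporters, the value was -2.65 for Abcb1a and 1.91 for Abcg2. Among other genes, the value was 4.84 for Adcy3, 7.95 for Angptl4, -4.12 for Car6, 5.05 for Gdpd2 and -3.98 for Gfra1. Of these, the test of Gdpd2 was lost under at least 1 alternative. The values of Angptl4, Adcy3 and Adm are fitted against groups with no or few counts, depend on the prior count and are no bounds.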

How the results depend on the processing

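The direction of all 205 named genes called in treated tumours was kept under each alternative run, and 163 kept their call under all of them. The other 42 lost it under at least 1, with 11 lost with only the groups compared in the fit, 3 with DESeq2 (Mfap4, Nkd2 and Nppc), 2 with no low-count filter, and 15 to 20 without single tumours. The treated count of called genes ran from 2801 to 3747. With only the groups compared in the fit, the untreated count was 1726, of which 814 were below 0. With DESeq2, 726 interactions were above 0. Leaving out 1 tumour at a time gave 1641 to 2876 untreated calls, 798 to 1289 above and 843 to 1587 below 0, and 399 to 608 interactions below 0. Called members of lists moved by over 1.5 times, besides those in the report, with no low-count filter (RAS, RAF, MEK and ERK genes lower 4 to 2, Collagen chains higher 2 to 5, ATF4 and amino acid stress lower 5 to 8, Endoplasmic reticulum chaperones higher 0 to 1, Oxidative phosphorylation lower 1 to 0, PI3K, AKT and FOXO genes higher 1 to 2, Hox genes lower 3 to 1 and Fibroblast markers higher 1 to 2), with only the groups compared in the fit (Neural crest and glial higher 2 to 1, Collagen chains higher 2 to 4, Cholesterol synthesis lower 5 to 8, ATF4 and amino acid stress lower 5 to 2, Endoplasmic reticulum chaperones higher 0 to 1, BCL2 family higher 0 to 1, Wnt beta-catenin targets lower 3 to 1, YAP and TEAD targets lower 2 to 1, Drug efflux transporters lower 3 to 1, PI3K, AKT and FOXO genes higher 1 to 2, Integrins higher 2 to 1, Integrins lower 5 to 3, Endothelial markers lower 2 to 1, Fibroblast markers higher 1 to 2, Pericyte and smooth muscle markers higher 2 to 1 and Adipocyte markers lower 1 to 0), with DESeq2 (Neutrophil markers lower 0 to 1, Endothelial markers higher 0 to 1, Endothelial markers lower 2 to 1 and Fibroblast markers higher 1 to 2) and with the stricter filter (Drug efflux transporters lower 3 to 1 and Pericyte and smooth muscle markers higher 2 to 1). Among genes not called, the sign turned without single tumours: over these, Asns ranged from -0.96 to 0.41, Egfr from -0.26 to 0.52, Etv5 from -0.062 to 0.16, Fosl1 from -0.45 to 0.17 and Hk2 from -0.34 to 0.031. Sox10, called in untreated tumours, ranged there from -2.53 to 0.50, the last without untreated 14559R replicate 3, and the cause was not tested. Egfr was at 0.06 without treated 2646R replicate 1 and Etv5 at -0.02 without treated 2646R replicate 3. Medians of chromosomes 6, 15 and 19 ranged over 0.37 to 0.46, 0.36 to 0.50 and 0.45 to 0.53 under alternatives added after the data were seen. No paired analysis was possible because the labels give no replicate numbers. With 3994624 to 4612122 counts a library, ratios against 1 to 3 counts carry the wide intervals given with them.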
